A study of Mus musculus with 91 samples.

Results

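The genes described here make cholesterol and fatty acids in the liver, and were taken as a fixed list of 34 symbols, 20 for the sterol pathway and 14 for the fatty acid pathway. The rule for membership is the symbol. Of the 34 genes, 33 were measured by a probe set with 1 gene symbol, 19 of the sterol genes and 14 of the fatty acid genes, and together they had 74 such probe sets. Acat2 was not analysed here. Where a gene had several probe sets, the brightest on average was used, as for each of the 18193 genes tested.

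The series holds liver RNA from 91 adult male mice on a C57BL/6J background, 1 Affymetrix array per mouse, in 19 groups. It asked how mouse liver responds to chemicals that do and do not cause liver tumours, given for 28 or 56 days. Per the labels, allocation to groups of 5 mice was random, and 15 groups have 5 arrays and 4 have 4. Of the livers, 81 came from C57BL mice and 10 from hCAR/hPXR mice, which carry the human nuclear receptors CAR and PXR in place of the mouse ones.

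CITCO, an activator of human CAR, was injected into the abdomen daily at 10 mg/kg for 28 days in C57BL and in hCAR/hPXR mice, and each was compared with carboxymethylcellulose (CMC) given to the same strain, 5 mice in each group. All other treated mice were C57BL. Phenobarbital (PB), an activator of CAR, was given at 0.05% in drinking water for 28 or 56 days, with water (H2O) controls of the same day, 5 mice in each group. Cyproterone acetate (CPA, 160 mg/kg), a steroid with antiandrogen action, and 1,4-dichlorobenzene (DCB, 600 mg/kg) were each given by gavage to 5 mice for 28 days and shared 5 corn oil (CO) controls. Piperonyl butoxide (PBO, 600 mg/kg, injected into the abdomen, 4 mice) was compared with the CMC cohort Co2 (5 mice). Wy-14643 (WY, 100 mg/kg by gavage, 5 mice), an agonist of the nuclear receptor PPARalpha, was compared with the CMC cohort Co1 (4 mice). Pioglitazone (Pio, 100 mg/kg by gavage, 5 mice), an agonist of PPARgamma, was compared with Co5 (4 mice). Methapyrilene hydrochloride (MePy, 1000 ppm in food, 5 mice) was compared with Co3 (4 mice), which received CMC and not a food control. Co4 (5 mice) was the CMC control of CITCO in C57BL mice. CITCO, PBO, WY, Pio and MePy were all given for 28 days. The 28-day PB titles carry a suffix "(2)", which the labels do not explain.

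Cholesterol synthesis starts from acetyl-CoA. Hmgcs1, Mvk, Pmvk and Mvd carry the mevalonate branch, Idi1 and Fdps build the isoprenoid chain, Fdft1 and Sqle make squalene and its epoxide, and Lss closes the ring. Cyp51, Tm7sf2, Nsdhl, Hsd17b7, Ebp, Sc5d and Dhcr7 then trim lanosterol to cholesterol. Srebf2 encodes the transcription factor that drives these genes when sterols are scarce, Insig1 encodes a protein that holds its precursor in the endoplasmic reticulum, and Stard4 encodes a cholesterol carrier. In fatty acid synthesis Acly makes cytosolic acetyl-CoA, Me1 supplies NADPH, Acaca and Acacb make malonyl-CoA, and Fasn builds palmitate. Elovl6 and Elovl5 lengthen the chains, Scd1 and Scd2 add the delta-9 double bond, and Fads2 and Fads1 desaturate polyunsaturated chains. Gpam starts glycerolipid assembly, and Srebf1 and Mlxipl encode the transcription factors that respond to insulin and to glucose.

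Deposited values are log2 expression made by RMA, on which 1 unit is a doubling, and changes below are treated minus control means on that scale with the standard error (SE) of the fit. In limma's moderated test, with p-values adjusted over all 18193 genes of a comparison, an adjusted p under 0.05 counts as passing, and "rose" and "fell" are used for genes that passed. Array medians lay between 5.18 and 5.36, and the hepatocyte markers Alb and Ttr were at 14.8 or above in all livers. Whole liver was measured, so that fewer cells of a type and less RNA per cell cannot be told apart.

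In 2 groups the labels were not borne out by genes known to respond to the agents, which were chosen after their values were seen. In the livers labelled Pio, Fabp4, a PPARgamma target of fat cells, changed by -0.33 (adjusted p = 0.939), whereas Cyp2b10, a CAR target, rose by 6.06, from a mean of 5.55 to 11.61 (adjusted p = 1.17e-15). In the livers labelled MePy, Fabp4 rose by 3.37, from 6.97 to 10.34 (adjusted p = 0.000127), and Cyp2b10 changed by -0.36 without passing. Fabp4 rose more with WY, by 5.14, from 7.52 to 12.66 (adjusted p = 7.82e-12), and Cyp2b10 changed there by 0.95 without passing. A rise of Fabp4 was thus not particular to the livers labelled MePy. Whether the groups labelled Pio and MePy were exchanged was not tested, and they are called by their labels throughout. Comparisons of the livers labelled Pio with those given WY rest on this label.

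The region just before a gene's start is where the factors of this pathway bind, and 4 such windows are shown for genes whose values carry the results below. Hmgcs1 and Mvd rose with WY, Hsd17b7 fell with DCB, and Fads2 moved in both directions. Each sequence gives the 250 bases before an annotated start, 5′ to 3′ on the gene's strand, from RefSeq on GRCm38.p6. The windows are chr13:119690101-119690350 (plus strand) for Hmgcs1, chr8:122443423-122443672 (minus strand) for Mvd, chr1:169969206-169969455 (minus strand) for Hsd17b7 and chr19:10101504-10101753 (minus strand) for Fads2. Capitals mark, on either strand, the sterol element TCACNCCAC, the E-box CACGTG and the CCAAT box, which reads ATTGG on the other strand.
Hmgcs1: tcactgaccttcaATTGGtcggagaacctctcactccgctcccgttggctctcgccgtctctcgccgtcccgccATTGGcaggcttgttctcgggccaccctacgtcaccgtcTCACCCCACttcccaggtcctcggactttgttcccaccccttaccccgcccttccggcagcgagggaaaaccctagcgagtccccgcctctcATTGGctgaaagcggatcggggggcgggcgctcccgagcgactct
Mvd: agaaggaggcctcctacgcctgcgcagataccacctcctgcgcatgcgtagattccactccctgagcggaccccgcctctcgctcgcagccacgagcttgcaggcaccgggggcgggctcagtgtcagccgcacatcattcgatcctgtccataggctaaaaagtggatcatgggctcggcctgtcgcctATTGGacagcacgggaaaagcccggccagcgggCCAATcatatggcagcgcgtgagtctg
Hsd17b7: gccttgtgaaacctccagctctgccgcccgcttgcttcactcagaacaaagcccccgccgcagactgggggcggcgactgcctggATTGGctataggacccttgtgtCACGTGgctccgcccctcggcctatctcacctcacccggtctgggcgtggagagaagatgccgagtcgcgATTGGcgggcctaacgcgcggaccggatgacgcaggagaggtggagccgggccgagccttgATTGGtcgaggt
Fads2: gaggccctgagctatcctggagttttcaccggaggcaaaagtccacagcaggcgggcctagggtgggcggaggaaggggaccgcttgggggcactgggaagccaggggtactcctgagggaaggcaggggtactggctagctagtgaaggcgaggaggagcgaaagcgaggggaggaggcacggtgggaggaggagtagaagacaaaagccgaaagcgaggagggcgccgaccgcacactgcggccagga

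Hmgcs1 held TCACCCCAC from -137 to -129 relative to its start and 3 CCAAT boxes, Mvd held 2 CCAAT boxes, and Hsd17b7 held 3 CCAAT boxes and 1 E-box. The annotated Hsd17b7 gene reaches up to base 169969242, so the end of its window, with the third CCAAT box, lies inside the gene. Fads2 held none of these letters in its window. RefSeq windows were matched for 27 of the 34 genes, 35 windows in all, and Fdps, Fdft1, Sqle, Stard4, Scd1, Scd2 and Fads1 were not matched. A CCAAT box was present in at least 1 window of 15 of 16 sterol genes and 7 of 11 fatty acid genes, and in 23 of their 35 windows, against 33.8% of all 32851 windows in the table. The sterol element was present in 2 of the 35 windows, those of Hmgcs1 and Mlxipl, against 1.05% of all windows, and the E-box in 6 of 35 against 6.02%. Matches to these letters are a description of the windows and were not tested as binding sites.

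Control livers already differed from each other in these genes, and this sets the scale for what follows. Across the 5 C57BL CMC cohorts, 16 of 19 sterol genes and 10 of 14 fatty acid genes passed an F test of any difference. Over all genes 33.2% passed. Among the 9679 genes with a mean log2 of at least 6, a level that all 33 synthesis genes reached, 5426 passed. The 3 sterol genes that did not pass over all genes were Sqle, Hsd17b7 and Srebf2, though Sqle and Srebf2 passed among the 9679. The 4 fatty acid genes that did not pass were Scd1, Scd2, Elovl5 and Mlxipl. Me1 had the smallest adjusted p (8.45e-10). Its cohort means were 9.39 in Co2, 10.76 in Co1, 11.13 in Co4, 11.56 in Co5 and 11.72 in Co3. Thus Co2 lay lowest, and the other cohorts followed within 1 unit of each other. Sc5d, the delta-5 sterol desaturase, had cohort means of 11.63 in Co1, 12.00 in Co2, 12.19 in Co5, 12.63 in Co4 and 12.78 in Co3 (adjusted p = 4.38e-09), so that Co1 lay lowest. Srebf1 had its lowest mean in Co5 (10.64) and its highest in Co2 (12.18).

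The highest and lowest cohort mean of a gene were 0.89 apart in the median sterol gene (range 0.34 to 1.49) and 1.03 apart in the median fatty acid gene (range 0.22 to 2.33). Co1, the control of WY, was the lowest of the 5 cohorts for 9 of 19 sterol and 7 of 14 fatty acid genes. Within groups the median residual SD was 0.27 for sterol and 0.36 for fatty acid genes, against 0.20 over all genes. The last value includes genes with a mean log2 below 6, where no synthesis gene lay, so level and spread were not separated. Over controls of other kinds no synthesis gene passed. None did between water controls of 56 and 28 days (limma), where 0.0330% of all genes passed. There 4 of 19 sterol and 1 of 14 fatty acid genes were at an unadjusted p below 0.05, against 5.75% of all genes. None did between corn oil and water of 28 days, where 0.115% of all genes passed. There 1 of 19 sterol and 3 of 14 fatty acid genes were at that level, against 5.77% of all genes. None did between the hCAR/hPXR and the C57BL CMC controls, where 0.126% of all genes passed. There 1 of 19 sterol and 1 of 14 fatty acid genes were at that level, against 6.51% of all genes. Co2 and Co4 were the controls of agents injected into the abdomen, PBO and CITCO. Their acute phase genes had means of 12.30 and 13.59, against 10.24 in Co1, 10.63 in Co3 and 10.96 in Co5. What set the CMC cohorts apart, with the route of dosing among it, was not tested.

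**Figure D1:**
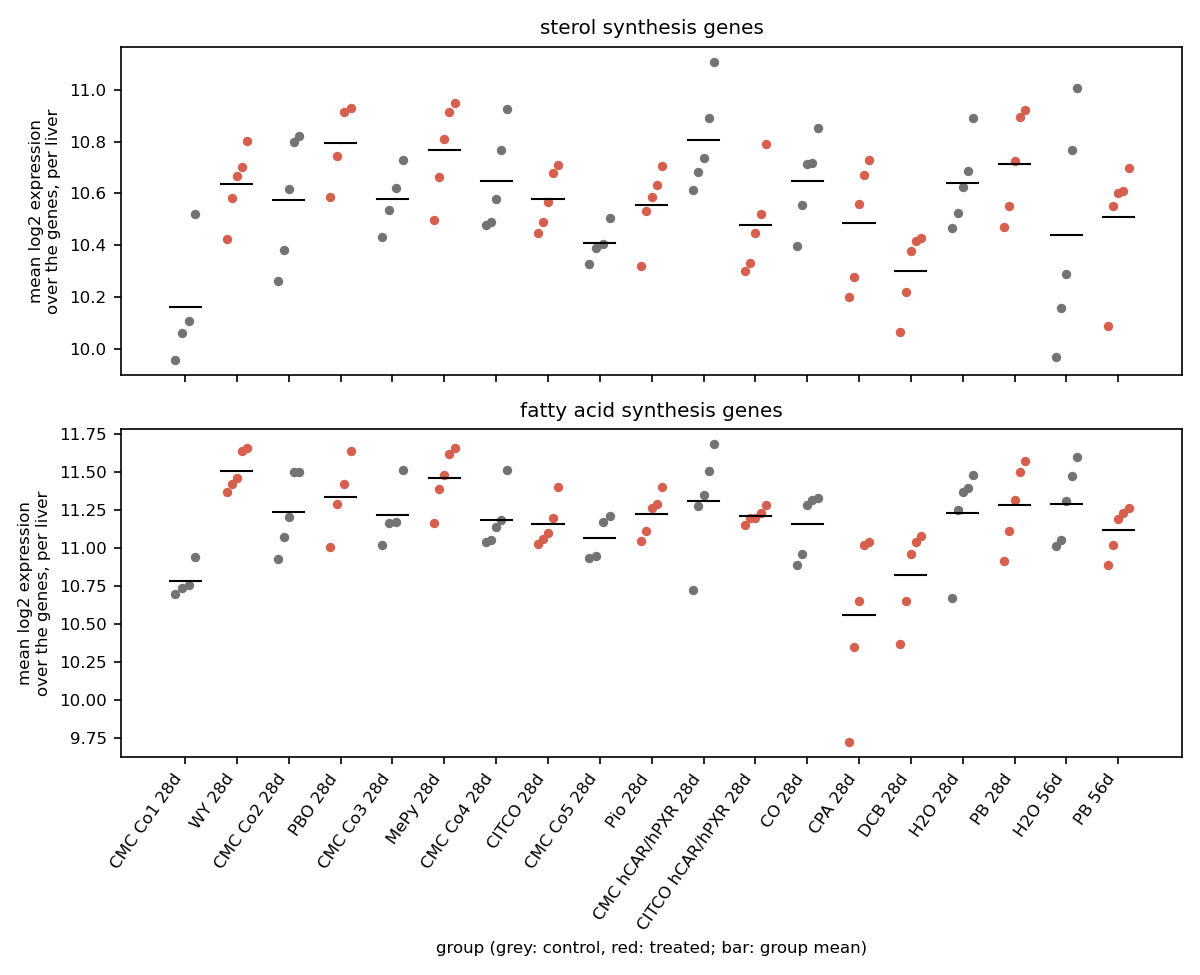
Mean log2 expression over the 19 sterol genes (top) and the 14 fatty acid genes (bottom) in every liver, by group, with grey points for control livers, red points for treated livers and a bar at each group mean. The control cohort Co1 has the lowest sterol mean of all 19 groups (10.16), and the livers given WY have the highest fatty acid mean (11.51) and those given CPA the lowest (10.56).

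**Figure D2:**
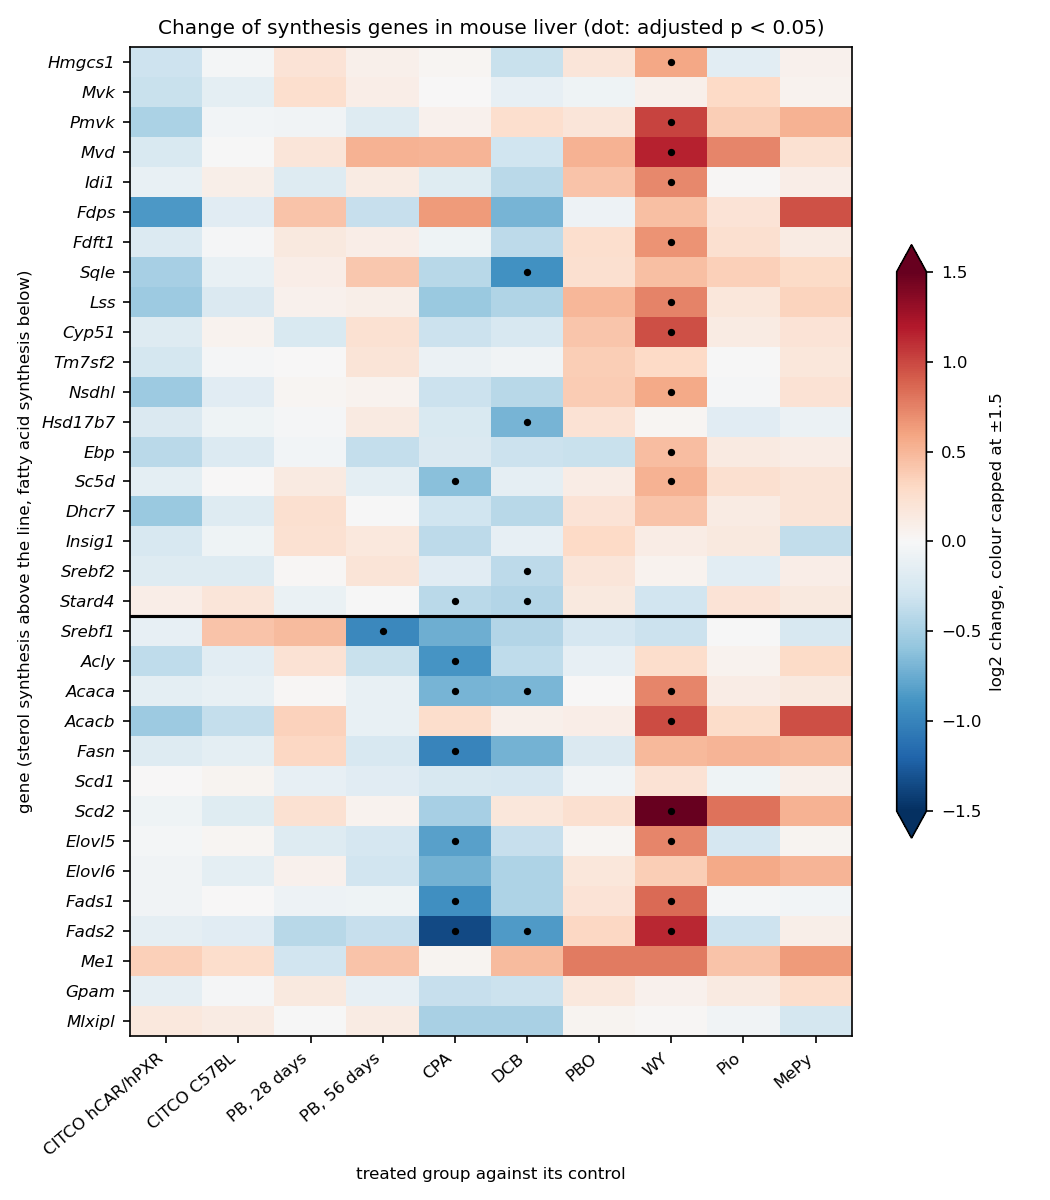
Change of each gene (vertical axis, sterol genes above the line and fatty acid genes below) in each of the 10 treated groups against its control (horizontal axis), as log2 change in colour capped at 1.5 in either direction, with a dot where the adjusted p is below 0.05. Dots are found in 4 columns, as rises with WY and falls with CPA, DCB and 56 days of PB.

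Among the 10 treated groups Wy-14643 gave the most changes in these genes, and all 16 that passed were rises. Of the sterol genes 10 of 19 rose and none fell, and of the fatty acid genes 6 of 14 rose and none fell, while over all genes 10.6% passed, 5.55% higher and 5.09% lower. The median change was 0.46 over the sterol genes and 0.61 over the fatty acid genes, against -0.04 over all genes. In 5 sterol and 8 fatty acid genes every WY liver lay above every Co1 liver, which held for 4.09% of all genes.

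The 4 sterol genes with the largest changes were Mvd, Pmvk, Cyp51 and Lss. Mvd, which decarboxylates mevalonate diphosphate, was at 7.26, 7.90, 7.13 and 6.89 in the 4 Co1 livers and at 8.21, 7.66, 9.03, 8.97 and 8.37 in the 5 WY livers. It rose by 1.15 ± 0.29 (SE), 2.22-fold (adjusted p = 0.00421), with 1 WY liver below the highest control. Pmvk, the kinase before it, was at 7.97, 8.34, 8.10 and 7.89 in controls and at 9.26, 9.08, 9.24, 8.77 and 9.09 with WY. All WY livers were above all controls, and the rise was 1.01 ± 0.20, 2.02-fold (adjusted p = 0.000276). Cyp51, which removes the 14-alpha methyl group of lanosterol, was at 9.37, 10.26, 9.71 and 9.90 in controls and at 10.82, 11.01, 10.83, 10.27 and 10.99 with WY. The groups did not overlap, though the fourth WY liver was only just above the second control, and the rise was 0.97 ± 0.22, 1.96-fold (adjusted p = 0.00113). Lss, lanosterol synthase, was at 9.34, 10.06, 9.56 and 9.26 in controls and at 9.96, 9.93, 10.33, 10.46 and 10.83 with WY. It overlapped through the second control and rose by 0.75 ± 0.23, 1.68-fold (adjusted p = 0.0223).

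The other 6 sterol genes that passed rose by 0.46 to 0.72. They were Idi1 (0.72, adjusted p = 0.0281), Fdft1 (0.67, adjusted p = 0.00520), Hmgcs1 (0.57, adjusted p = 0.0215), Nsdhl (0.57, adjusted p = 0.0117), Sc5d (0.52, adjusted p = 0.0151) and Ebp (0.46, adjusted p = 0.0151). The regulators did not pass. Srebf2 changed by 0.05, Insig1 by 0.11 and the carrier Stard4 by -0.29 (adjusted p = 0.129), the only sterol gene below 0. Fdps (0.46), Sqle (0.45), Dhcr7 (0.43), Tm7sf2 (0.30), Mvk (0.07) and Hsd17b7 (0.03) were above 0 without passing.

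The 4 fatty acid genes with the largest changes that passed were Scd2, Fads2, Acacb and Fads1. Scd2, a stearoyl-CoA desaturase that is low in normal adult liver, was at 5.33, 5.05, 5.55 and 5.67 in controls and at 6.79, 11.00, 8.37, 8.86 and 11.34 with WY. Every WY liver was higher, but they spread over more than 4 units, and the rise was 3.87 ± 0.53, 14.6-fold (adjusted p = 4.89e-08). Fads2, the delta-6 desaturase, was at 10.09, 10.27, 10.33 and 10.33 in controls and at 11.78, 10.64, 11.80, 11.10 and 11.58 with WY. The groups did not overlap, and it rose by 1.13 ± 0.23, 2.18-fold (adjusted p = 0.000237). Fads1, the delta-5 desaturase, was at 11.67, 11.84, 11.95 and 11.90 in controls and at 12.75, 12.46, 12.68, 12.43 and 13.12 with WY. It rose by 0.85 ± 0.19, 1.80-fold (adjusted p = 0.00102), again without overlap. Acacb, the acetyl-CoA carboxylase tied to the mitochondrion, was at 8.34, 7.92, 8.06 and 8.03 in controls and at 9.01, 8.92, 9.42, 9.12 and 8.84 with WY, a rise of 0.97 ± 0.27, 1.96-fold (adjusted p = 0.0123), without overlap.

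Acaca (0.74, adjusted p = 0.0197) and Elovl5 (0.74, adjusted p = 0.00173) also rose. Fasn, at 0.48 (adjusted p = 0.380), Acly, at 0.27, and Elovl6, at 0.37, did not pass. Me1 ran from 10.03 to 12.71 among the WY livers, against 10.38 to 11.22 in controls, and its change of 0.78 did not pass (adjusted p = 0.0795). It passed without WY replicate 2 (1.16, adjusted p = 0.00434) or replicate 4 (0.95, adjusted p = 0.0412). Srebf1 changed by -0.33 (adjusted p = 0.455) and Mlxipl by 0.02.

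**Figure D3:**
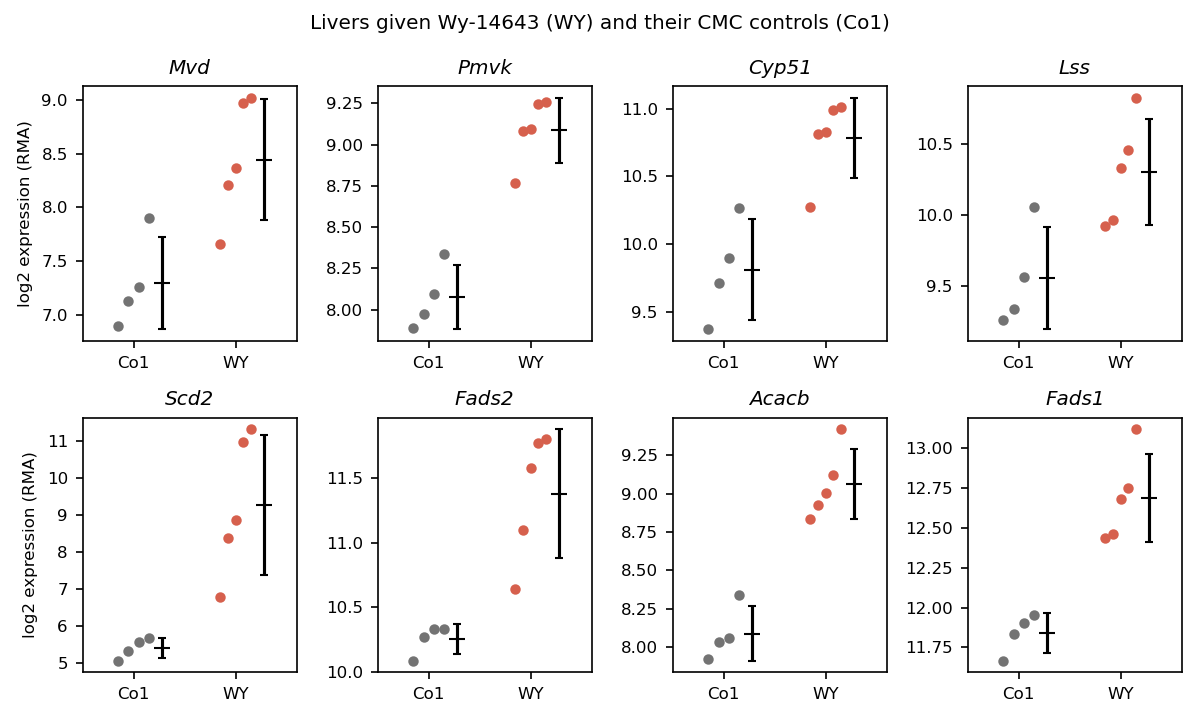
Log2 expression of 8 genes in each Co1 control liver and each WY liver, with black bars for the mean and SD of each group. Mvd and Lss overlap between the groups, and the WY livers for Scd2 run from 6.79 to 11.34 while the 4 controls lie between 5.05 and 5.67.

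Probe sets of a gene did not always move together. For Scd1, the main hepatic stearoyl-CoA desaturase, the probe set read here changed by 0.21 (adjusted p = 0.228) with a mean of 14.63 over all arrays, near the top of the scale. The second Scd1 probe set, with a mean of 10.8, rose by 1.70 ± 0.31 (adjusted p = 9.18e-05 over all probe sets of the table, of which 7.90% passed). The other 2 probe sets of Scd2 changed by 0.18 and 0.02 and did not pass. All 3 probe sets of Fads2 and 4 of 5 of Hmgcs1 passed as rises, but only 1 of 3 did for Cyp51, Lss and Sc5d, and 1 of 2 for Mvd.

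Genes beside the pathway, from lists of sterol and of fatty acid metabolism, moved in part. Of 14 measured sterol neighbours, 3 rose with WY, namely Rdh11 (0.94), the sterol C4-methyl oxidase Msmo1 (0.74) and the sterol exporter subunit Abcg5 (0.67). Of 25 fatty acid neighbours, 8 rose and 2 fell. The acyl-CoA synthetase Acsl3 rose by 0.94, Pgd, which supplies NADPH, by 0.91, and the acetyl-CoA synthetase Acss2 by 0.87, whereas Elovl3 fell by 2.35 and the liver pyruvate kinase Pklr by 1.22. PPARalpha targets rose for 4 of 7, with the peroxisomal enzyme Ehhadh at 2.58 and the thioesterase Acot1 at 2.29.

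Other cell and stress genes moved in the same livers. Macrophage markers rose for 4 of 7 genes, Cd5l by 1.68, Vsig4 by 1.53, Csf1r by 1.29 and Clec4f by 1.14, and the mean of all 7 ran from 6.99 to 7.67 in Co1 livers and from 7.64 to 8.92 in WY livers. Acute phase and metal-stress genes rose for 4 of 14, and their mean ran from 10.00 to 10.80 in Co1 and from 9.87 to 13.78 with WY. The mean of genes that respond to fasting ran from 10.74 to 10.88 in Co1 and from 10.84 to 11.72 with WY. None of 6 hepatocyte markers and none of 3 adipocyte markers passed (limma), with 1 of each at an unadjusted p below 0.05. The part of these cells and of the stress and fasting genes in the rise of synthesis genes was not tested.

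The rise depended in size on the control cohort. Against the mean of all 5 CMC cohorts (22 livers), 5 sterol genes rose and 1 fell, and 5 fatty acid genes rose and 1 fell, where 13.6% of all genes passed. The medians were 0.21 and 0.16, against -0.02 over all genes. The sterol rises were Mvd (0.65), Hmgcs1 (0.47), Cyp51 (0.47), Fdft1 (0.46) and Tm7sf2 (0.27), and Stard4 fell by 0.37. The fatty acid rises were Scd2 (3.41), Fads2 (0.82), Fads1 (0.63), Me1 (0.62) and Elovl5 (0.53), and Srebf1 fell by 0.54. Sc5d changed sign, to -0.093. In no synthesis gene did all WY livers lie above all 22 CMC livers, and the WY mean was above every cohort mean for 3 sterol and 4 fatty acid genes. Leaving out single livers, against Co1, gave 5 to 11 sterol and 5 to 7 fatty acid genes that passed. The low sterol value of 5 came without Co1 replicate 1, when Ebp (0.35), Nsdhl (0.44), Sc5d (0.42), Idi1 (0.63) and Lss (0.68) no longer passed. Over the 9 omissions Idi1 no longer passed in 5, and Hmgcs1, Lss and Acaca in 3 each.

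**Figure D4:**
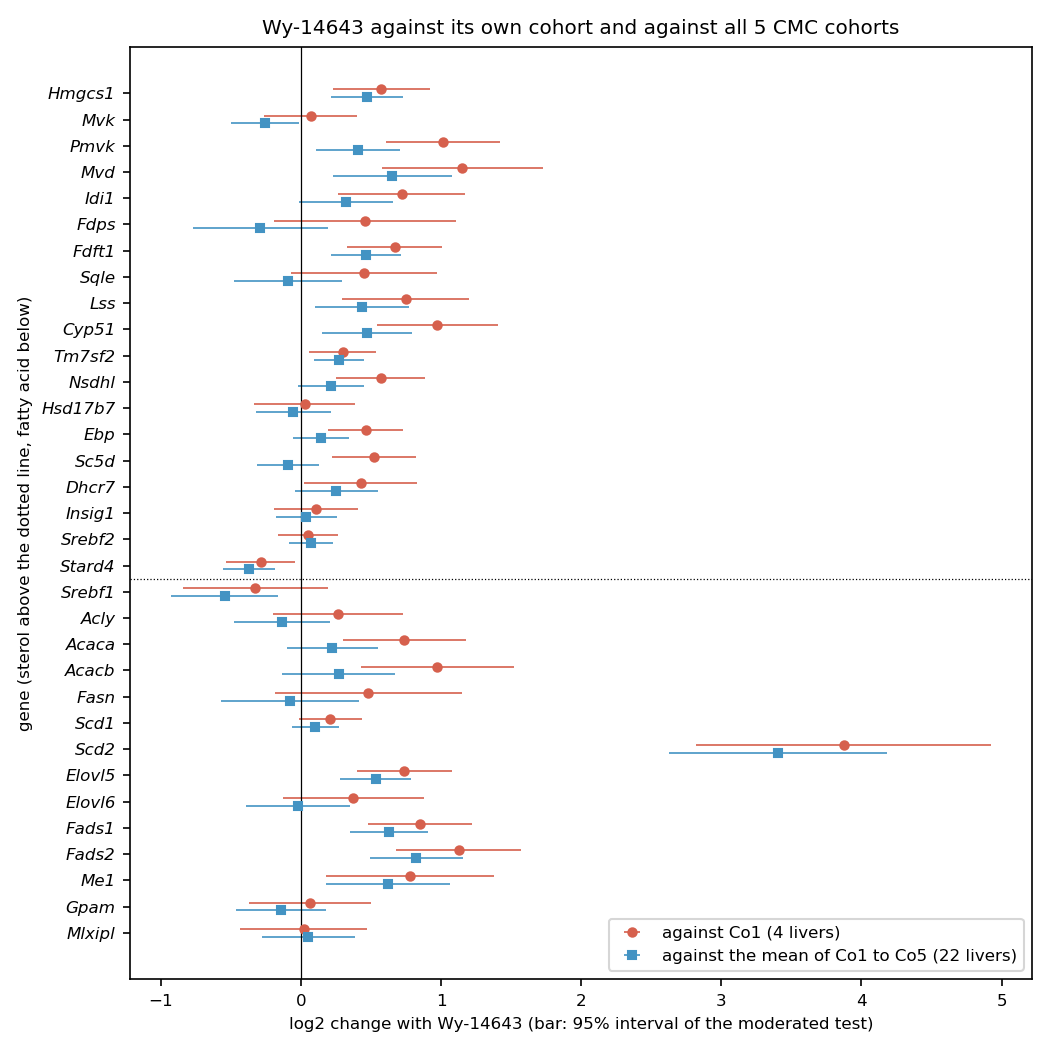
Change with WY of each of the 33 genes (vertical axis) as log2 change (horizontal axis), against the 4 Co1 livers (circles) and against the mean of the 5 CMC cohorts with 22 livers (squares), with 95% intervals of the moderated fit as bars. Most sterol genes sit nearer 0 against the mean of the cohorts, where their median is 0.21 and not 0.46, while Scd2 stays far to the right of the other genes.

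Cyproterone acetate was followed by lower fatty acid synthesis genes. Of 14 fatty acid genes 6 fell and none rose, and of 19 sterol genes 2 fell and none rose, where 5.32% of all genes passed, 2.70% as lower. The median change was -0.70 over the fatty acid and -0.22 over the sterol genes, against 0.02 over all genes. The 2 genes with the smallest adjusted p were the desaturases. Fads2 was at 11.10, 11.45, 11.57, 11.27 and 10.88 in the 5 corn oil livers and at 9.69, 9.36, 10.35, 10.29 and 9.79 in the 5 CPA livers. All CPA livers were below all controls, a fall of 1.36 ± 0.21, 2.56-fold (adjusted p = 3.76e-06). Fads1 was at 11.91, 12.23, 12.31, 12.27 and 11.89 in controls and at 11.14, 10.48, 11.34, 11.57 and 11.46 with CPA, also without overlap, and it fell by 0.92 ± 0.18, 1.90-fold (adjusted p = 0.000233). Elovl5 fell by 0.82 (adjusted p = 0.000316), from 13.10 to 13.51 in controls to 11.89 to 12.89 with CPA.

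Fasn, Acly and Acaca also fell, and they varied between CPA livers. Fasn, fatty acid synthase, was at 11.27, 11.74, 11.77, 10.70 and 11.78 in controls and at 10.15, 8.71, 10.29, 11.29 and 11.83 with CPA. The second CPA liver was lowest and the fifth was above every control, and the fall was 1.00 ± 0.32, 1.99-fold (adjusted p = 0.0453). Acly, ATP citrate lyase, was at 11.37, 11.62, 12.02, 11.67 and 12.46 in controls and at 10.52, 10.18, 10.83, 11.67 and 11.53 with CPA, a fall of 0.88 ± 0.22, 1.84-fold (adjusted p = 0.00703). Acaca fell by 0.70 (adjusted p = 0.0305). Without CPA replicate 2 these were -0.56 for Fasn, -0.38 for Acaca and -0.69 for Acly, none passed, and 3 fatty acid genes remained. The count was also 3 without CO replicate 5, with Fasn at -0.91, Acly at -0.73 and Acaca at -0.63, and leaving out single livers gave 3 to 8 in all. Over the 10 omissions Fasn no longer passed in 6 and Acaca in 5. Srebf1 (-0.73, adjusted p = 0.0634) and Elovl6 (-0.71, adjusted p = 0.0676) did not pass. Both passed without CPA replicate 5, Srebf1 at -0.996 (adjusted p = 0.00586) and Elovl6 at -0.89 (adjusted p = 0.0176).

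The 2 sterol genes that fell with CPA were Sc5d and Stard4. Sc5d was at 12.86, 12.95, 13.13, 12.90 and 12.99 in controls and at 11.86, 12.58, 12.27, 12.38 and 12.62 with CPA, a fall of 0.62 ± 0.14, 1.54-fold (adjusted p = 0.00267), without overlap. Stard4 was at 10.63, 10.93, 11.00, 10.81 and 10.82 in controls and at 10.18, 10.36, 10.54, 10.61 and 10.48 with CPA, a fall of 0.40 ± 0.12, 1.32-fold (adjusted p = 0.0247), also without overlap. Stard4 no longer passed without CPA replicate 1 or 2 or without CO replicate 2 or 3, which left 1 sterol gene. Fdps (0.64, adjusted p = 0.257) and Mvd (0.51) lay above 0 without passing.

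Of the sterol neighbours, Insig2, which like Insig1 holds the SREBP precursor in place, rose by 1.45 (adjusted p = 8.6e-10) and the acetoacetyl-CoA synthetase Aacs fell by 0.93. Of 25 fatty acid neighbours 4 fell, the phosphatidate phosphatase Lpin1 by 1.63, the coactivator Ppargc1b by 1.39, Elovl2 by 0.76 and Mid1ip1 by 0.71, and Agpat2 rose by 0.45. PPARalpha targets fell for 3 of 7, with Cyp4a14 at -3.20, Cpt1a at -1.02 and Ehhadh at -0.84. In the same livers 6 of 14 clock genes fell and 2 rose, and the mean of the clock genes was 6.98 to 7.51 with CPA and 7.63 to 8.09 in controls. Of 14 acute phase genes 3 rose, with means of 13.83 and 13.56 in CPA replicates 2 and 5 and 11.18 to 11.38 in the other 3. Of 6 hepatocyte markers Hnf4a (-0.47) and Apoa1 (-0.14) fell, and 0 of 7 macrophage markers passed (limma), with 1 at an unadjusted p below 0.05. The part of the clock, acute phase and hepatocyte genes in the falls was not tested.

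1,4-Dichlorobenzene was followed by lower synthesis genes of both lists. Of 19 sterol genes 4 fell and none rose, and of 14 fatty acid genes 2 fell and none rose, where 3.83% of all genes passed, 1.67% as lower. The median changes were -0.39 and -0.41, against 0.02 over all genes, and 18 of the 19 sterol changes were below 0. Sqle, squalene epoxidase, was at 10.36, 10.97, 10.96, 10.43 and 10.61 in the corn oil livers and at 9.67, 10.31, 9.35, 9.37 and 10.10 with DCB. All DCB livers were below all controls, and Sqle fell by 0.91 ± 0.25, 1.87-fold (adjusted p = 0.0185). Hsd17b7, the 3-ketosterol reductase, was at 10.57, 9.95, 10.11, 9.82 and 10.24 in controls and at 9.75, 9.70, 9.07, 9.35 and 9.30 with DCB, a fall of 0.70 ± 0.17, 1.63-fold (adjusted p = 0.00583), without overlap. Srebf2, the regulator of the pathway, was at 7.79, 7.64, 7.59, 7.45 and 7.52 in controls and at 7.04, 7.22, 7.38, 7.05 and 7.37 with DCB. It fell by 0.39 ± 0.10, 1.31-fold (adjusted p = 0.0116), without overlap. Stard4 was at 10.64, 10.29, 10.29, 10.25 and 10.50 with DCB, the first of which lay within the controls, and fell by 0.44 ± 0.12, 1.36-fold (adjusted p = 0.0135).

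Fads2 was at 9.81, 10.72, 10.64, 10.08 and 10.76 with DCB, below all corn oil livers, and fell by 0.85 ± 0.21, 1.80-fold (adjusted p = 0.00745). Acaca was at 8.72, 9.45, 9.32, 8.82 and 9.40 in controls and at 8.02, 8.79, 8.76, 8.05 and 8.63 with DCB, overlapping through DCB replicates 2 and 3, and fell by 0.69 ± 0.21, 1.61-fold (adjusted p = 0.0394). Fasn (-0.70, adjusted p = 0.250) and Fdps (-0.70, adjusted p = 0.234) did not pass. Without DCB replicate 4 only 1 sterol gene passed, without DCB replicate 1 or CO replicate 3 there were 2, and no fatty acid gene passed without DCB replicate 1. Without DCB replicate 4 or CO replicate 2, 3 or 5, 1 fatty acid gene passed. Over the 10 omissions Sqle and Acaca each no longer passed in 5, and Srebf2 in 3. Of the neighbours, Scap, which escorts SREBP, fell by 0.54, Dgat2, which completes triglyceride synthesis, fell by 0.46 and Pgd rose by 0.84. Of 6 hepatocyte markers 3 fell, Hnf4a by 0.54, Fga by 0.31 and Apoa1 by 0.15, and 2 of 14 acute phase genes fell. Of 14 clock genes Ciart fell by 1.07 and Clock rose by 0.60, 9 were at an unadjusted p below 0.05, and their mean was 7.49 to 7.76 with DCB and 7.63 to 8.09 in controls. The part of these in the falls was not tested.

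CPA and DCB shared their controls, so the difference between them was tested directly. Of the 33 genes 2 differed, where 4.11% of all genes passed. Among the 9679 genes with a mean log2 of at least 6, 717 passed, so the count of 2 was near the share of such genes. Fdps, farnesyl diphosphate synthase, was at 10.59, 10.34, 10.56, 11.21 and 11.06 with CPA and at 9.66, 9.85, 8.91, 9.20 and 9.46 with DCB, and the controls, at 10.03, 9.73, 10.23, 9.88 and 10.73, overlapped with both. All CPA livers were above all DCB livers, and the difference was 1.34 ± 0.31, 2.53-fold (adjusted p = 0.00283). Sc5d was lower with CPA than with DCB by 0.49 (log2 difference of -0.49 ± 0.14, adjusted p = 0.0288). Leaving out single livers gave 1 to 4 genes that differed, 1 without CPA replicate 1 or without DCB replicate 2 or 5, and 4 without DCB replicate 1. Fads2 differed by -0.51 and did not pass.

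**Figure D5:**
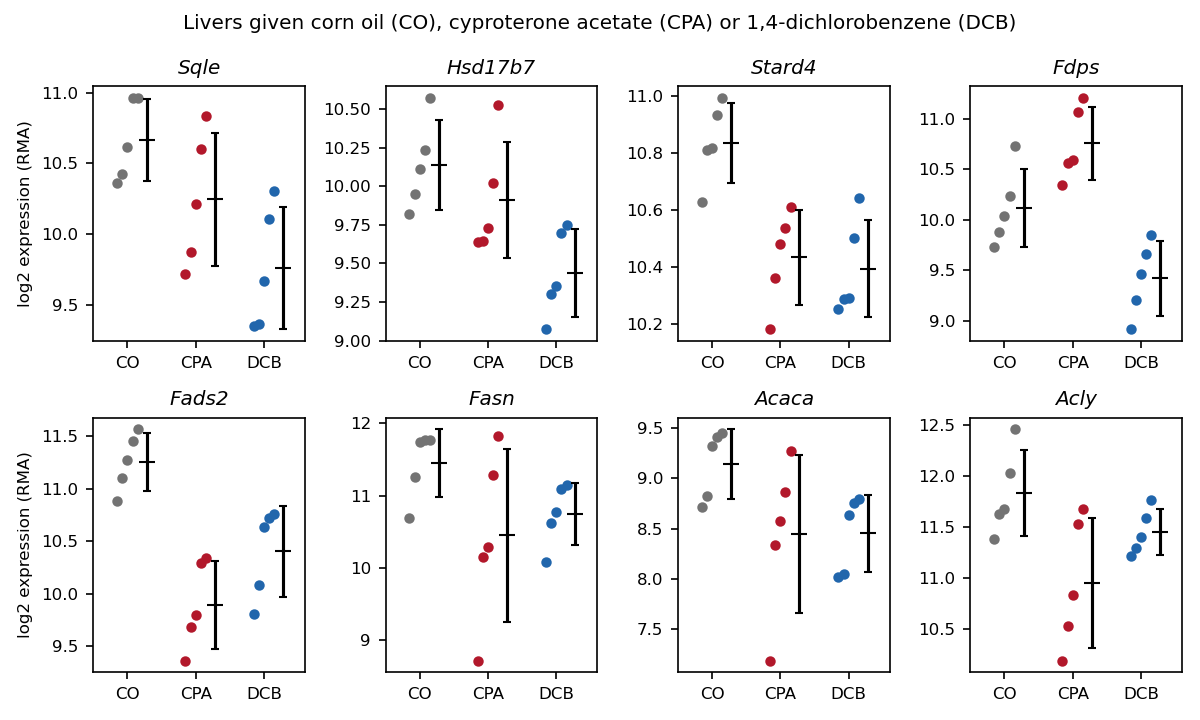
Log2 expression of 8 genes in each liver given corn oil (CO), CPA or DCB, with black bars for the mean and SD of each group. Fads2 lies below all controls in both treated groups, Sqle and Hsd17b7 lie below them with DCB, and Fasn with CPA runs from 8.71 to 11.83.

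Phenobarbital gave 1 synthesis gene that passed over both times. At 28 days none of the 33 genes passed in limma, where 0.967% of all genes did, and 0 were at an unadjusted p below 0.05, against 9.07% of all genes. At 56 days 1 gene did, a fatty acid gene, where 0.566% of all genes passed, and the medians were 0.10 over the sterol and -0.15 over the fatty acid genes. This was Srebf1, which was at 12.07, 11.30, 11.85, 11.50 and 11.75 in the water controls and at 10.75, 11.34, 10.55, 10.39 and 10.58 with PB. Only the second PB liver lay among the controls, and the fall was 0.97 ± 0.25, 1.96-fold (adjusted p = 0.0344). It no longer passed without PB replicate 1, 3, 4 or 5 or without water replicate 1, 3 or 5, where the change ran from -1.13 to -0.88 over all 10 omissions. At 28 days Srebf1 was at 10.49, 11.18, 11.28, 11.04 and 11.41 in controls and at 11.24, 12.09, 11.96, 10.87 and 11.59 with PB, a change of 0.47 ± 0.25 that did not pass. The difference between the times was -1.44 ± 0.35 and did not pass (adjusted p = 0.208), and 0 of 18193 genes did (879 at an unadjusted p below 0.05).

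CITCO gave no synthesis gene that passed in either strain. In hCAR/hPXR mice 18 of 19 sterol changes were below 0, with a median of -0.27 against 0.01 over all genes. Of the 19, 9 were at an unadjusted p below 0.05, against 1274 of the 18193 genes. By adjusted p 0.0989% of all genes passed in limma. The fatty acid median was -0.09, with 1 gene at that level. The median acute phase gene was at -0.80 in the same comparison, with 0 of 14 such genes passing and 10 at an unadjusted p below 0.05, and its part in the sterol values was not tested. Nsdhl, a C4-demethylation enzyme, was at 10.70, 10.78, 11.52, 11.35 and 11.06 in the controls and at 10.57, 10.16, 10.57, 11.01 and 10.39 with CITCO, overlapping, a change of -0.54 ± 0.15 (adjusted p = 0.166). Without CITCO replicate 4 it passed (-0.66, adjusted p = 0.0471). Fdps had the largest difference, -0.86 (adjusted p = 0.422), with controls from 9.44 to 10.87 and CITCO livers from 8.17 to 10.10. The mean over the sterol genes was 10.81 in these controls, the highest of all 19 groups, and 10.48 with CITCO. Other control groups had means from 10.16 to 10.65. Against Co4, 16 of 19 sterol genes were higher in these controls, and none passed. The part of this control level in the sterol values and in the difference between strains was not tested. In C57BL mice the sterol and fatty acid medians were both -0.07, with 0 genes at an unadjusted p below 0.05, against 874 of the 18193 genes, and 0.00550% of all genes passing. The mean of the acute phase genes was lower in this strain too, at 11.27 to 12.62 with CITCO and 13.05 to 14.32 in Co4. The difference between the strains did not pass for any of the 33 genes (0 at an unadjusted p below 0.05, against 2.02% of all genes, of which 0.00550% passed), although all 19 sterol estimates lay below 0, with a median of -0.22.

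Piperonyl butoxide gave no gene that passed against Co2, where 0.808% of all genes did (limma). Of the sterol genes 16 of 19 were above 0, with a median of 0.22 and 5 at an unadjusted p below 0.05, and of the fatty acid genes 1 was at that level, where 12.4% of all genes were. All 7 macrophage markers were below 0 (median -0.58), and Marco fell by 1.98, the only one that passed. Their part in the synthesis genes was not tested. Me1, malic enzyme, was at 8.84, 8.97, 9.67, 9.65 and 9.83 in Co2 and at 10.37, 9.86, 10.12 and 10.35 with PBO. The groups did not overlap, but the change of 0.78 ± 0.30 did not pass (adjusted p = 0.231). The largest sterol changes were Mvd at 0.52 and Lss at 0.50. Without Co2 replicate 1 Ebp passed (-0.53) and without Co2 replicate 3 Tm7sf2 passed (0.50).

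The livers labelled Pio and MePy gave no synthesis gene that passed, where 0.0220% and 0.181% of all genes did (limma). In those labelled Pio the medians were 0.15 and 0.08, with 1 sterol and 1 fatty acid gene at an unadjusted p below 0.05, as were 7.66% of all genes. All 7 macrophage markers were above 0 in those livers (median 0.73), 3 of them at that level, and none passed. Mvd was at 7.48, 7.57, 7.94 and 7.57 in Co5 and at 8.48, 8.05, 7.86, 8.83 and 8.65 in the livers labelled Pio, overlapping by 1 liver (0.74 ± 0.29, adjusted p = 0.475). In those labelled MePy the medians were 0.17 and 0.20, and 17 of 19 sterol genes were above 0. There 3 of 19 sterol and 3 of 14 fatty acid genes were at an unadjusted p below 0.05, against 6.73% of all genes. In the same livers all 7 macrophage markers (median 0.97) and all 14 acute phase genes (median 0.92) were above 0, with 6 and 5 at that level, and none passed. The part of these genes in either group was not tested. Acacb was at 8.70, 8.35, 8.66 and 8.70 in Co3 and at 8.76, 10.30, 9.38, 9.71 and 9.70 in the livers labelled MePy. The groups did not overlap, the change was 0.97 ± 0.27 (adjusted p = 0.186), and it passed without MePy replicate 1 (1.17, adjusted p = 0.0436). Fdps was at 8.91, 8.85, 9.83 and 9.25 in Co3 and at 10.18, 10.35, 10.10, 10.08 and 10.11 in those livers, also without overlap, a change of 0.96 ± 0.33 (adjusted p = 0.378).

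Each of these groups looks different against the mean of the 5 CMC cohorts, which holds Co2, Co3, Co4 and Co5 as well as Co1. With PBO 8 sterol genes were then higher and 1 lower, and 6 fatty acid genes higher and 1 lower, where 26.6% of all genes passed. Mvd was higher by 1.30, Lss by 1.22, Dhcr7 by 1.04 and Fdft1 by 0.90, and Ebp was at -0.84 and Me1 at -0.74. Me1 thus lay above its own cohort Co2 and below the mean of the 5 cohorts. In the livers labelled MePy 7 sterol genes were higher and 1 lower, and 3 fatty acid genes higher, where 15.3% of all genes passed. Fdps was higher by 1.28, Pmvk by 0.91 and Sc5d by 0.73, and Me1 by 1.45, Scd2 by 1.10 and Acacb by 0.78. In those labelled Pio Me1 was higher by 1.08 and Srebf1 was at -0.73, where 5.82% of all genes passed, and with CITCO in C57BL mice 3 sterol genes were higher and 1 lower, where 10.4% passed. These comparisons share all 22 control livers, and differences between cohorts enter each of them.

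The response to WY was set against that of the livers labelled Pio, each measured from its own cohort. Of the 33 genes 4 differed, all higher with WY and all of the fatty acid list, where 3.02% of all genes passed. Scd2 differed by 3.06 ± 0.75 (adjusted p = 0.00813), Fads2 by 1.44 ± 0.32 (adjusted p = 0.00261), Elovl5 by 0.99 ± 0.24 (adjusted p = 0.00778) and Fads1 by 0.88 ± 0.27 (adjusted p = 0.0490). Fads1 no longer passed in 14 of the 18 omissions of a single liver, and its difference ran from 0.77 to 0.94 over all 18. In the livers labelled Pio, Scd2 was at 6.13, 5.74, 5.48, 6.32 and 6.40, and in Co5 at 5.49, 5.06, 4.61 and 5.64. Fads2 was at 10.57, 10.83, 10.13, 10.22 and 10.37 in those livers and at 10.56, 10.69, 10.78 and 10.91 in Co5, so that Scd2 and Fads2 both overlapped with their controls. No sterol gene differed between the responses (6 of 19 at an unadjusted p below 0.05, against 17.1% of all genes, limma). This depended on the fit. With only the compared groups in it, Hmgcs1 (0.74, adjusted p = 0.0159) and Cyp51 (0.85, adjusted p = 0.0487) passed. Hmgcs1 also passed with the mean of all probe sets of a gene (1.11, adjusted p = 0.0162) and without Co1 replicate 2 (0.87, adjusted p = 0.0497). Stard4 passed as lower without WY replicate 1 (-0.57, adjusted p = 0.0468).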

How the data were processed

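Liver RNA was extracted with Qiazol and labelled with the 3'IVT Express kit, per the labels' protocols. Per the submitters' processing notes, the log2 values deposited by the authors came from RMA, a method that subtracts background, quantile-normalises the arrays and combines the probes of each set. The software version and the genome build are not given in the sources used here. RMA hides a change in total RNA per cell and compresses folds at both ends of the scale. The table held 45037 probe sets on 91 arrays, and the number of arrays limits the precision. A single symbol was given for 34945 probe sets by the platform table.

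A means model of 19 groups with 72 residual degrees of freedom was fitted with limma 3.58.1 in R 4.3.3, with moderated two-sided tests, a mean-variance trend and Benjamini-Hochberg adjustment over 18193 genes. The procedure was tested on simulated data with independent noise and no differences between control cohorts, so that test cannot speak to cohort differences. The members and lists were chosen with earlier results of these data known. Up to 4 members per list and comparison with the largest change among those that passed were described in full, beside genes needed for a contrast. Replicate numbers were not treated as pairs, since no comparison had all correlations of same-numbered livers above 0.1. DCB had 3 of 5 above it, the highest at 0.22, so this rule cannot exclude pairing. Alternatives were the probe set rule, the filter, the trend, the control, the samples fitted, array centring, the replicate block and omission of each liver.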

Additional observations from a re-analysis of the deposited data

Results flagged for a closer look

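In 3 of 78 sets of 4 or 5 livers examined, 1 liver stood far from the rest, and chance alone marks about 1 in 20 such sets. The mean over the sterol genes was 10.09 in PB 56-day replicate 1, while the other 4 livers lay between 10.55 and 10.70. The mean over the fatty acid genes was 10.67 in water 28-day replicate 1, below 11.25 to 11.48 in the other 4. Cyp51 was 10.27 in WY replicate 4, below 10.82 to 11.01 in the other 4.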

How the results depend on the processing

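Counts of synthesis genes that passed stayed within 1.5 times of the values given when dim genes were left out, when arrays were centred on their medians and when no mean-variance trend was used. With only the compared groups in the fit, CPA gave 1 sterol and 3 fatty acid genes, DCB 2 and 1, CPA against DCB 1, and corn oil against water 1 (Elovl5, -0.43). That fit also passed fewer of all genes tested, 289 and not 968 for CPA, 320 and not 696 for DCB, 792 and not 1936 for WY, 10 and not 147 for PBO, 4 and not 33 for MePy and 239 and not 748 for CPA against DCB, but 332 and not 176 for 28 days of PB. With the mean of all probe sets of a gene, CPA gave 0 sterol and 3 fatty acid genes and DCB 0 fatty acid genes. Adjusted over all probe sets, an alternative chosen after seeing the data, DCB gave 1 fatty acid gene. The shares over all genes include dim genes, and no synthesis gene was dim. Of the 9679 genes with a mean log2 of at least 6, 1599 passed for WY, 1083 for CPA and 838 for DCB. There 96 passed for 56 days of PB and 529 for WY against Pio.

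Against the mean of the 5 CMC cohorts WY gave 6 sterol genes that passed, with Sc5d at -0.093, PBO 9 sterol and 7 fatty acid genes, the livers labelled MePy 8 and 3, those labelled Pio 2 fatty acid genes, and CITCO in C57BL mice 4 sterol genes. Over all genes this control passed 4837 for PBO, 2785 for MePy, 1058 for Pio and 1896 for CITCO.

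With the replicate block, 56 days of PB gave 0 fatty acid genes and WY against Pio 2 of the 4, and WY gave 12 of the 16. The block is nested in the control cohorts, so differences between cohorts could not be estimated with it.

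Leaving out single livers gave 0 to 1 sterol gene for CITCO in hCAR/hPXR mice and for PBO, 1 to 3 for CPA, 1 to 4 for DCB and 5 to 11 for WY. It gave 0 to 1 fatty acid gene for 56 days of PB and for MePy, 3 to 8 for CPA, 0 to 2 for DCB and 5 to 7 for WY, and 1 to 4 genes for CPA against DCB and 3 to 4 for WY against Pio. The causes were not tested.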
